A study of Mus musculus with 2 samples.

Results

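The 8 genes described here, Fzd4, Lgr5, Lef1, Tcf7, Axin2, Apcdd1, Notum and Nkd1, are targets or receptors of canonical Wnt signaling that are used as a readout of the pathway in blood vessels of the central nervous system. They were taken from a list of names chosen with earlier results of these data known, and all 8 were present among the 24071 genes in the series. They were followed in the spinal cord across arterial, capillary and venous endothelial cells, the mural cells that wrap the vessels, and the ependymal cells that line the central canal.

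The cells came from adult C57BL/6j mice of 10 to 12 weeks that were homozygous for Cre at Clec9a, which encodes the dendritic cell receptor DNGR-1, and for a lox-stop-lox tdTomato reporter at R26, so that both groups shared 1 genotype (Clec9acre/creR26LSLtdTomato/LSLtdTomato) and no treatment set them apart. Live CD45- CD133+ cells were sorted by tdTomato into a traced group (CD133+ DNGR-1 traced) and a non-traced group (CD133+ non-traced), and each gave 1 droplet-based single-cell library. Tracing reports past activity of the Clec9a locus and not its expression when a cell is collected. The paper treats mice of this genotype as deficient in Clec9a, which holds for both groups. There were 25411 non-traced cells, whose median depth was 7218 unique molecular identifiers (UMIs), and 4825 traced cells, whose median depth was 8566 UMIs.

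In endothelial cells of the brain and spinal cord, Wnt7 ligands and Norrin act through Frizzled receptors and the co-receptors Lrp5 and Lrp6 to keep β-catenin from being degraded. β-catenin then enters the nucleus and joins the DNA-binding factors of the LEF/TCF family. The pathway is needed to form and keep the blood-brain barrier, and several of its targets feed back to dampen it.

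With 1 library per group and cells that are not replicates, no difference could be tested. A level is the UMIs of a gene summed over the cells of a class, scaled by the total UMIs of that class to the counts-per-million unit (CPM), and a fold is a ratio of CPM. The 95% interval beside a level (exact Poisson) or a fold (exact conditional) covers counting error only, so a narrow interval says nothing about how far another mouse would differ. A difference was counted as past 2-fold where log2(CPM + 1) differed by at least 1 for a gene with at least 5 CPM in either class. Clusters were made without the 8 genes and without the other Wnt genes listed below, and were named by marker genes.

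The endothelial-like class of the non-traced library held 21075 cells, in which all 8 endothelial markers (among them Cldn5, Pecam1 and Cdh5) were found in at least 50% of cells. Of 13 sub-clusters, 3 were arterial-like (3833 cells), 5 capillary-like (11715 cells) and 2 venous-like. The largest arterial-like one, of 2391 cells, was led by such genes as Gkn3, Bmx and Vegfc, and the other 2 had other leading genes, given below. The venous-like cells, 2304 in all, comprised a sub-cluster of 2188 cells led by Vcam1, Icam1 and Cyp2e1, with several inflammatory chemokine genes, and one of 116 cells led by Lrg1 and Ackr1. The larger had 6 of 10 venous markers 2-fold above other endothelial cells, and the smaller 9 of 10. In a finer clustering (resolution 1.6), sub-clusters of 913 and 130 cells were venous-like. Those of 1532 and 569 cells, led by Icam1 and by Cxcl10, had 3 of 10 venous markers 2-fold up and stayed unnamed. Hemoglobin genes were among the leading genes of 3 capillary-like sub-clusters, and heat shock genes among those of 2. The remaining 3 sub-clusters, with 3223 cells or 15.3% of the class, stayed unnamed. Among them was 1 of 844 cells in which all 8 pericyte markers were 2-fold above other endothelial cells (3343 CPM in sum). These 844 cells were kept in the endothelial-like class. The mural-like class was small, with 279 cells, of which 103 were smooth muscle-like (Acta2, Tagln, Myh11) and 176 pericyte-like (Vtn, Kcnj8, Pdgfrb). Ependymal-like cells numbered 1153 in the non-traced library and 4745 in the traced one. A further 2820 droplets, 11.1% of the non-traced library, carried the markers of 2 classes and were kept out of the comparisons. The libraries had 42 cell barcodes in common.

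Taken from the gene annotation of the mouse genome (GENCODE M21, GRCm38), Axin2 lies at chr11:108920349-108950783, Notum at chr11:120653788-120661175, Tcf7 at chr11:52252371-52283014, Lef1 at chr3:131110471-131224356, Fzd4 at chr7:89404355-89413134, Nkd1 at chr8:88521354-88594884 and Lgr5 at chr10:115450311-115587780. The RefSeq table of promoter windows (GRCm38.p6, from 250 bases before to 50 bases after a start) held 9 windows for 5 of the 8 genes, namely Lef1, Tcf7, Fzd4, Nkd1 and Axin2. These were searched on both strands for the LEF/TCF letters CTTTG followed by a pair of bases that are each adenine or thymine (matches on opposite strands can share their last bases), because LEF and TCF proteins are the factors through which the pathway acts. A match was found in 1 window only, while 16.9% of all 32851 windows in the table held at least 1. It belonged to an internal start of Lef1 and is shown because it is the sole match among the 9 windows, read 5′ to 3′ on the strand of the gene at chr3:131156117-131156183, where 7 of the 8 annotated Lef1 transcripts have an intron. None of the 8, which are from GENCODE, begins near that internal start, which is from the RefSeq table. The capitals mark the match, which is CTTTGTA on the opposite strand and begins 147 bases before the start.
Lef1 internal window: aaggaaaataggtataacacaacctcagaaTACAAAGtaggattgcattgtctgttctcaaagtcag
The match is a description of letters, and the other windows say only that these letters are not in them.

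Of the 8 genes, 7 were at a higher level in endothelial-like than in ependymal-like cells, by 4.24-fold for Axin2 to 83.3-fold for Tcf7. The exception was Lgr5, which was close to 0 in both. Of the 7, 6 were also past 2-fold above mural-like cells, with Nkd1 as the one that was not. Within the endothelium, Apcdd1 and Nkd1 were past 2-fold higher in both capillary- and venous-like than in arterial-like cells, whereas the highest and the lowest Axin2 level of the 3 classes were 1.16-fold apart.

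**Figure D1:**
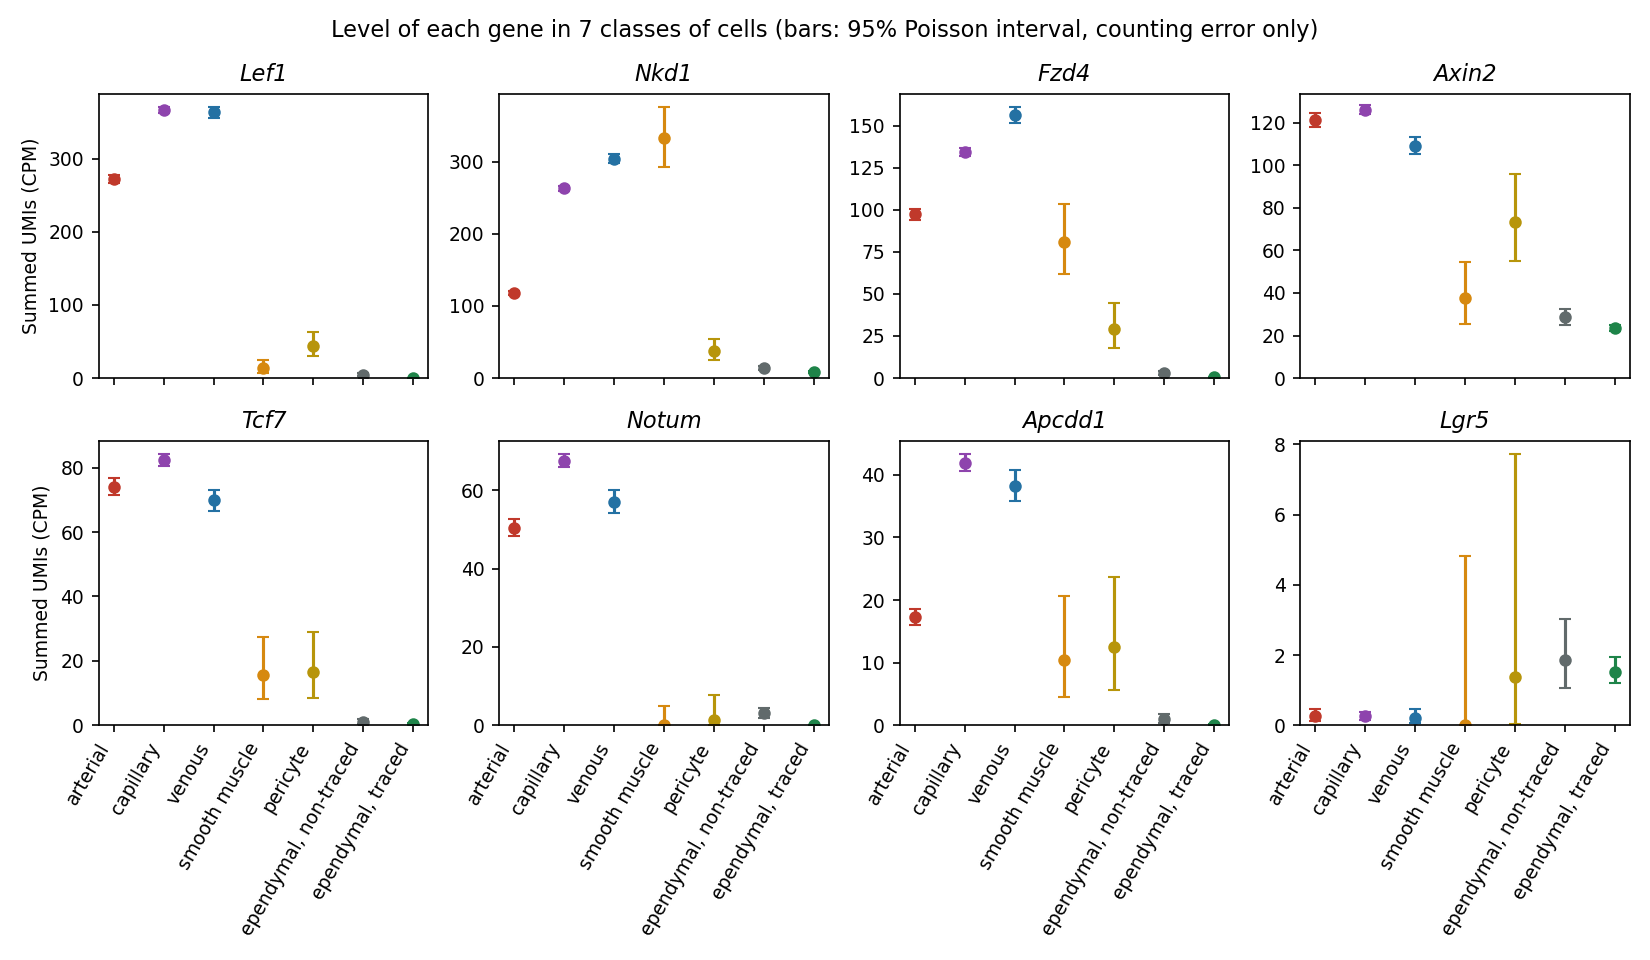
Summed UMIs in CPM (y axis, linear, own range in each panel) for the 8 genes in 7 classes of cells; points are the level of the class, bars its 95% Poisson interval for counting error. Nkd1 in smooth muscle-like cells (333 CPM) sits above the arterial and capillary levels, with an interval that holds the venous level, while Lef1, Tcf7 and Notum are high in the 3 endothelial classes alone.

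Fzd4 encodes the Frizzled receptor for Norrin. Its level was 97.3 CPM (95% interval 94.3 to 100.4) in arterial-like, 134 CPM (132 to 137) in capillary-like and 156 CPM (151 to 161) in venous-like cells. The order was thus arterial, capillary, venous, with no overlap of the counting intervals. In mural-like cells it stood at 55.8 CPM (44.4 to 69.1), and in ependymal-like cells at 3.02 CPM (1.97 to 4.43) where non-traced and 0.591 CPM (0.389 to 0.859) where traced.

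Lgr5, a receptor for R-spondins and a stem cell marker in several epithelia, was barely detected. In the whole endothelial-like class it had 46 UMIs, or 0.248 CPM (0.182 to 0.331), and arterial-, capillary- and venous-like cells, at 0.252, 0.252 and 0.195 CPM, could not be ordered at this depth. In ependymal-like cells, 16 UMIs of the non-traced library made 1.86 CPM (1.06 to 3.02), and 70 UMIs of the traced one made 1.53 CPM (1.19 to 1.93). Among the 8 genes it was the only one with more CPM in ependymal-like than in endothelial-like cells. Since it reached 5 CPM in neither class, it was not counted.

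Lef1 encodes a DNA-binding partner of β-catenin. It was at 272 CPM (267 to 278) in arterial-like, 366 CPM (362 to 370) in capillary-like and 363 CPM (356 to 371) in venous-like cells. Capillary- and venous-like cells could not be told apart by counting error, and arterial-like cells stood below both. Outside the endothelium it was lower, at 28.2 CPM (20.3 to 38.2) in mural-like cells, and in ependymal-like cells at 4.77 CPM (3.42 to 6.47) for those not traced and 0.131 CPM (0.0482 to 0.286) for those traced.

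Tcf7, the gene for the related factor TCF1, varied little along the vessel. Its levels were 74.0 CPM (71.4 to 76.8) in arterial-like, 82.3 CPM (80.5 to 84.2) in capillary-like and 69.9 CPM (66.7 to 73.2) in venous-like cells. Capillary-like cells were thus highest, and the intervals of the other 2 overlapped. It was at 16.1 CPM (10.3 to 24.0) in mural-like cells and below 1 CPM in ependymal-like cells of both libraries.

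Axin2 encodes a scaffold of the complex that degrades β-catenin, and is the target most often used to report the pathway. It was at 121 CPM (118 to 125) in arterial-like, 126 CPM (124 to 129) in capillary-like and 109 CPM (105 to 113) in venous-like cells. Arterial- and capillary-like cells overlapped, and the venous-like cells lay just below. Axin2 was also the member with the highest level in ependymal-like cells of both libraries. It was at 55.1 CPM (43.8 to 68.4) in mural-like cells, and its ependymal-like levels were 28.6 CPM (25.1 to 32.4) without tracing and 23.7 CPM (22.3 to 25.1) with it.

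Apcdd1, whose membrane-bound product binds Wnt ligands and Lrp5 and inhibits signaling, showed a steep gradient. It was at 17.3 CPM (16.02 to 18.6) in arterial-like, 41.97 CPM (40.7 to 43.3) in capillary-like and 38.2 CPM (35.9 to 40.7) in venous-like cells. Arterial-like cells thus stood apart from both other classes. In mural-like cells 17 UMIs gave 11.4 CPM (6.66 to 18.3), which overlaps the arterial level, and in traced ependymal-like cells only 3 UMIs were found in all.

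Notum encodes a secreted enzyme that removes the lipid from Wnt proteins and so inactivates them. Its order was arterial with 50.4 CPM (48.2 to 52.6), venous with 57.1 CPM (54.2 to 60.1) and capillary with 67.5 CPM (65.8 to 69.2). None of these intervals overlapped. In mural-like cells a single Notum UMI was found in 1488024, and the 45721443 UMIs of the traced ependymal-like cells held 0, which allows up to 0.0656 CPM.

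Nkd1, which binds Dishevelled and dampens the signal, had the widest range over the 3 endothelial classes. It was at 118 CPM (114 to 121) in arterial-like, 263 CPM (260 to 266) in capillary-like and 304 CPM (298 to 311) in venous-like cells. The order was the same as for Fzd4, arterial, capillary, venous, without overlap. Its mural-like level of 190 CPM (168 to 213) lay between the arterial and the capillary levels, and its ependymal-like levels were 13.8 CPM (11.5 to 16.6) and 8.42 CPM (7.60 to 9.31) in the non-traced and traced libraries.

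The comparison of capillary- and venous-like with arterial-like cells asks how the targets vary along the vascular tree. Of the 7 members that reached 5 CPM, 2 were past 2-fold higher in capillary-like cells, against 1.26% of the 9924 genes compared, and none was lower, against 3.59% of genes. Nkd1 was 2.23-fold (2.16 to 2.30) and Apcdd1 2.43-fold (2.24 to 2.64) higher. The other 5 were higher by less than that, with Fzd4 at 1.38-fold, Lef1 and Notum both at 1.34-fold, Tcf7 at 1.11-fold and Axin2 at 1.04-fold (1.01 to 1.08). The median log2 difference of the 7 was 0.42, beside -0.03 for all genes compared, and all 7 lay above 0, as did 42.5% of all genes. With Wnt genes allowed among the features that made the clusters, the Apcdd1 ratio was 3.81. In that setting a sub-cluster of 1223 cells led by such genes as Unc5b, Sema3g and Bmx was not in the arterial-like class. It had 5 of 11 arterial markers 2-fold up and stayed unnamed. Its part in the ratio was not tested.

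Against arterial-like cells, venous-like cells had the same 2 members past 2-fold higher, beside 2.85% of 10011 genes, and again none lower, beside 4.32%. Nkd1 was 2.58-fold (2.49 to 2.68) and Apcdd1 2.21-fold (2.004 to 2.44) higher. Fzd4 followed at 1.61-fold (1.54 to 1.68), while Axin2 stood at 0.900-fold (0.859 to 0.943) and Tcf7 at 0.944-fold (0.890 to 1.002). The 2 comparisons share their arterial-like cells. Venous- and capillary-like cells differed past 2-fold in none of the 7 members, beside 1.71% of 9777 genes higher and 0.849% lower in venous-like cells, and the member ratios ran from 0.845 for Notum to 1.16 for Fzd4. The markers of other cells moved along as well. The summed level of the 8 endothelial markers was 20198 CPM in arterial-like, 18946 CPM in capillary-like and 16026 CPM in venous-like cells, and that of the 8 pericyte markers 363, 480 and 252 CPM. The median depth was 8737, 6359 and 9606 UMIs per cell in the same order. Their part in the member differences was not tested.

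**Figure D2:**
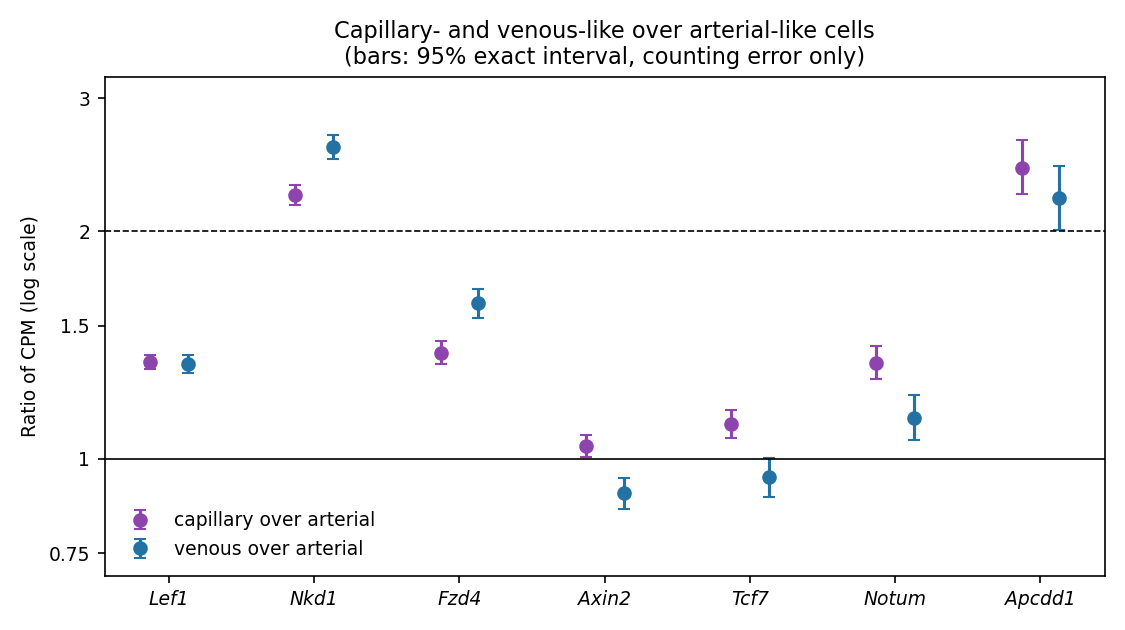
Ratio of CPM (y axis, log scale) of capillary-like over arterial-like cells (purple) and of venous-like over arterial-like cells (blue) for the 7 members above 5 CPM; bars are exact 95% intervals for counting error, and the dashed line marks 2-fold. Nkd1 and Apcdd1 lie above the line in both comparisons, and Axin2 lies close to 1 in both.

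Sub-clusters of one class differed among themselves. Among arterial-like cells, Apcdd1 was at 21.4 CPM in the sub-cluster of 2391 cells, and at 9.04 and 8.80 CPM in those of 810 and 632 cells, which were led by Cytl1, Mgp and Fbln5 and by Pi16, S100a4 and Fabp4. Nkd1 followed the same order with 139, 80.02 and 67.9 CPM, whereas Lef1, with 303, 194 and 233 CPM, was lowest in the sub-cluster of 810 cells. Fbln5 and Mgp are matrix genes of larger arteries. The 2 smaller arterial sub-clusters were thus the lowest of all sub-clusters for Nkd1, Apcdd1, Lef1 and Fzd4. Without the largest arterial sub-cluster, the capillary over arterial ratio was 4.70 for Apcdd1 and 3.52 for Nkd1, and the venous over arterial ratio was 4.28 for Apcdd1, 4.07 for Nkd1 and 2.06 for Fzd4, which then passed 2-fold as well.

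The 2 venous-like sub-clusters also differed. The larger one had 112 CPM of Axin2, 58.4 CPM of Notum and 313 CPM of Nkd1, whereas the 116 cells led by Lrg1 and Ackr1, a chemokine receptor of post-capillary venules, had 52.9 CPM (40.8 to 67.4), 30.1 CPM (21.2 to 41.5) and 126 CPM (107 to 148). The venous results above therefore rest on the larger sub-cluster. With the smaller one alone as the venous class, neither Nkd1 (1.07-fold) nor Apcdd1 (1.18-fold) was past 2-fold above arterial-like cells, Axin2 was past 2-fold lower at 0.436-fold, and Axin2, Apcdd1, Notum and Nkd1 were all past 2-fold below capillary-like cells. The share of all genes past 2-fold was not computed for these 116 cells, so the calls cannot be set against it. Lef1, at 362 CPM (329 to 397), and Fzd4, at 131 CPM (112 to 153), stayed at the capillary level in the same 116 cells.

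An unnamed sub-cluster of 62 cells, led by Apln, Kit and Angpt2, genes known from sprouting endothelium, paired the highest Apcdd1 level of all 13 sub-clusters (57.1 CPM, 37.9 to 82.5) with the lowest Notum level (20.4 CPM, 9.78 to 37.5). Both intervals also held the level of the sub-cluster next in order. Its Axin2 level was 61.2 CPM (41.3 to 87.3). In the sub-clusters of capillary-like cells, Lef1 ranged from 263 to 415 CPM, Nkd1 from 184 to 302 CPM and Axin2 from 87.6 to 148 CPM. The Axin2, Lef1 and Fzd4 maxima were all in the sub-cluster with the greatest depth (median 12837 UMIs per cell), and the Axin2 and Lef1 minima in that with the least (5235 UMIs).

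**Figure D3:**
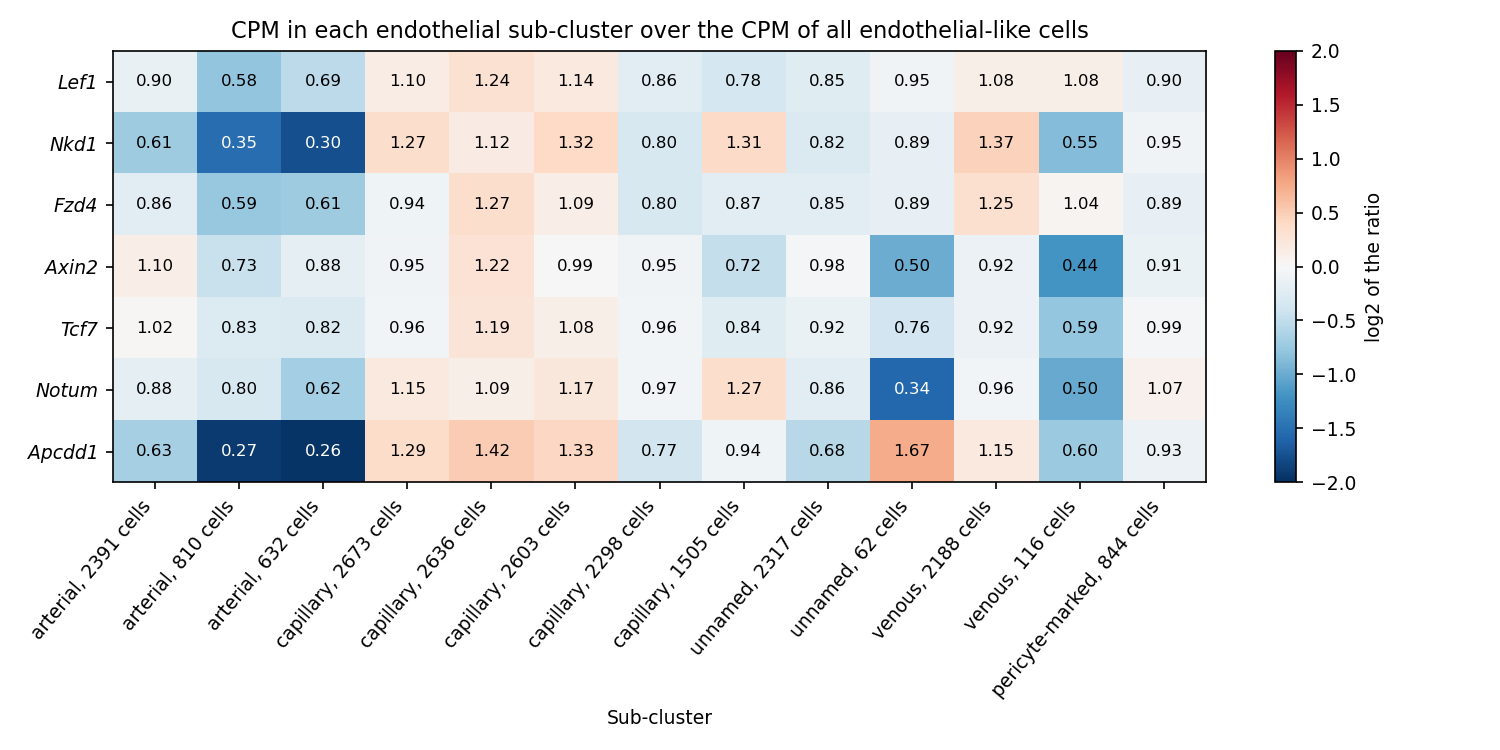
Level of 7 members (rows) in the 13 endothelial sub-clusters (columns, with their class and number of cells) as a ratio to the level in all endothelial-like cells; color is log2 of that ratio, from blue (lower) to red (higher). The 2 smaller arterial sub-clusters are low for Nkd1 and Apcdd1 (0.26 to 0.35 of the endothelial level), and the 116 venous cells are low for Axin2 (0.44).

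Across the 11 sub-clusters with at least 200 cells, which all come from 1 library and differ in depth, some members ran closely together. Pearson's r of log2(CPM + 1) was 0.96 between Apcdd1 and Nkd1, 0.93 between Fzd4 and Lef1 and 0.89 between Notum and Nkd1. It was 0.26 between Axin2 and Nkd1 and 0.08 between Axin2 and Notum, the lowest of the 21 pairs. Axin2 was closest to the transcription factors, with r of 0.86 with Tcf7 and 0.74 with Lef1. Among 6214 genes with at least 20 CPM in endothelial-like cells, the 5 most like the mean profile of the members were Srgap2, Tecpr1, Slc39a10, Fam129a and Myo6 (r from 0.98 to 0.99 over 11 sub-clusters). Srgap2 was at 155, 232 and 220 CPM in arterial-, capillary- and venous-like cells, and Slc39a10, a zinc importer, at 447, 692 and 578 CPM.

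Cell by cell, the genes were found in most endothelial cells as a group. With every cell thinned to 1000 UMIs, 60.4% (59.8 to 61.1, exact Clopper-Pearson) of endothelial-like cells had a UMI of at least 1 member, and 20.7% (20.2 to 21.3) of at least 2. The share with 1 or more was 49.5% in arterial-like, 63.8% in capillary-like and 64.8% in venous-like cells. It was 37.9% (28.5 to 48.0) in smooth muscle-like, 17.0% (11.8 to 23.4) in pericyte-like, 5.46% (4.22 to 6.94) in non-traced ependymal-like and 2.99% (2.53 to 3.52) in traced ependymal-like cells. Without thinning, the shares were 98.5% in endothelial-like cells, with a median of 6924 UMIs, and 32.8% in non-traced ependymal-like cells, with a median of 7062 UMIs. At 1000 UMIs, Lef1 was found in 27.0% of endothelial-like cells against 0.694% of non-traced and 0 of 4745 traced ependymal-like cells, which allows up to 0.0632% of cells with a UMI at that depth. Without thinning, 2 of these cells had a Lef1 UMI. Axin2 was found in 10.9% against 2.60% and 2.002%.

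The comparison with mural cells asks whether the genes mark the endothelium rather than the vessel wall. Of 7 members at 5 CPM or more, 6 were past 2-fold higher in endothelial-like cells, against 15.2% of 11055 genes, and none was lower, against 17% of genes. The folds were 11.9 (8.79 to 16.5) for Lef1, 4.81 (3.23 to 7.502) for Tcf7, 2.99 (1.86 to 5.13) for Apcdd1, 2.26 (1.82 to 2.84) for Fzd4 and 2.20 (1.77 to 2.77) for Axin2. Notum, with 1 UMI in mural-like cells, was 90.5-fold higher with an interval of 16.2 to 3574. Nkd1 was only 1.21-fold (1.07 to 1.36) higher. The mural-like class pools smooth muscle-like and pericyte-like cells. Fzd4 was at 64.1% of its endothelial level in the former and 23.1% in the latter. Axin2 was at 31.2% and 60.5%. Each of these 2 genes was thus past 2-fold below the endothelium in only 1 of the 2 types. Leaving out the pericyte sub-cluster with the most endothelial RNA moved the Lef1 fold to 18.8, and Axin2 was just short of the limit with a mean of per-cell CPM and with cells of at least 1000 genes and at most 5% mitochondrial UMIs (0.979 and 0.996 on the log2(CPM + 1) scale).

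Smooth muscle-like and pericyte-like cells were compared after their values had been seen. Of 6 members at 5 CPM or more, 2 were past 2-fold higher in smooth muscle-like cells, against 12.1% of 11096 genes, and 1 was lower, against 15.6% of genes. Nkd1 was at 333 CPM (293 to 376) in smooth muscle-like and 37.4 CPM (24.7 to 54.4) in pericyte-like cells, an 8.90-fold (5.97 to 13.8) difference, and the smooth muscle interval lay above the arterial and capillary levels and held the venous one. At 1000 UMIs, 30.1% (21.5 to 39.9) of smooth muscle-like and 5.11% (2.36 to 9.49) of pericyte-like cells had an Nkd1 UMI. Fzd4 was 2.78-fold (1.67 to 4.80) higher in smooth muscle-like cells, at 80.9 against 29.1 CPM, and 1.99-fold higher with UMIs thinned to 1000 a cell. Axin2 leaned the other way, with 37.8 CPM (25.3 to 54.4) in smooth muscle-like and 73.4 CPM (55.0 to 96.0) in pericyte-like cells, and did not pass 2-fold. Lef1 was lower in smooth muscle-like cells, at 13.1 against 44.3 CPM (0.294-fold, 0.129 to 0.614). The endothelial markers, which summed to 713 CPM in smooth muscle-like and 2034 CPM in pericyte-like cells, differed in the direction of Lef1. Without the pericyte sub-cluster of 55 cells with the most endothelial RNA (3830 CPM of these markers), the Nkd1 difference was 17.2-fold, and that of Lef1 was no longer past 2-fold (0.505-fold).

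Levels outside the endothelium are therefore given beside the endothelial markers, which should be absent there. In smooth muscle-like cells the 8 markers were at a median of 3.84% of their endothelial level (2.40% to 5.53%). Lef1, at 3.89%, was within that range, Notum was at 0, and Nkd1 (145%), Fzd4 (64.1%), Axin2 (31.2%), Apcdd1 (30.6%) and Tcf7 (20.2%) were above it. In pericyte-like cells the markers were at 13.4% (8.51% to 19.3%), with Lef1 (13.2%) and Nkd1 (16.3%) inside, Axin2 (60.5%), Apcdd1 (36.6%), Fzd4 (23.1%) and Tcf7 (21.4%) above and Notum (2.28%) below. In non-traced ependymal-like cells they were at 1.70% (1.25% to 5.90%). There Axin2 (23.6%) was well above the range, Nkd1 (6.05%) just above and Tcf7 (1.20%) just below. The other 4 were inside a range whose upper end is set by 1 marker. Of these, Notum (4.97%) was above 7 of the 8 markers, Apcdd1 (2.73%) and Fzd4 (2.40%) above 6 and Lef1 (1.42%) above 1. In traced ependymal-like cells, the markers were at a median of 0.0558%, with 1 at 4.63%, and Axin2 was again above all 8, at 19.5%. Nkd1 (3.68%), Tcf7 (0.649%), Fzd4 (0.468%) and Apcdd1 (0.192%, from 3 UMIs) were each above 7 of the 8. Lef1 (0.0391%) was above 2 of them, and Notum was at 0.

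**Figure D4:**
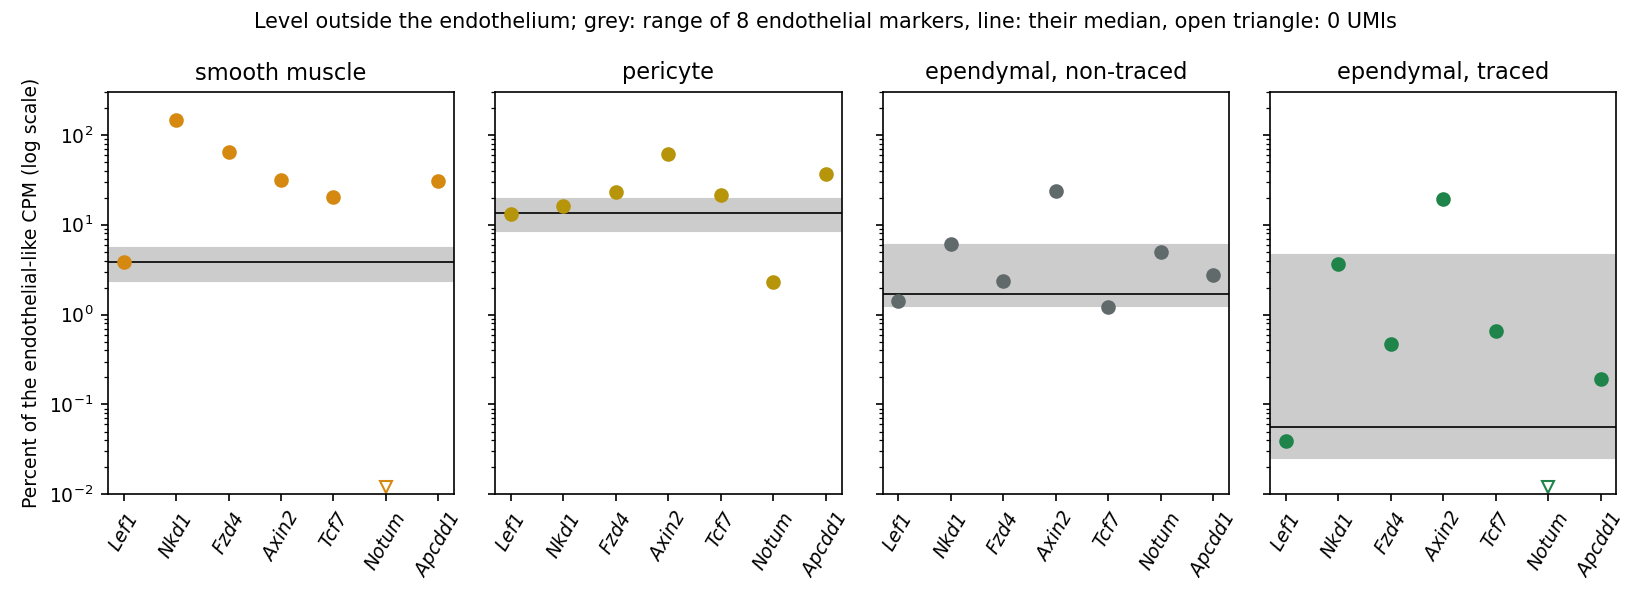
Level of 7 members in 4 classes of cells as a percent of their level in non-traced endothelial-like cells (y axis, log scale); the gray band spans the same percent for 8 endothelial markers, the line is their median, and an open triangle marks 0 UMIs. Lef1 lies in the band in all 4 classes, and Axin2 lies above it in all 4.

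The comparison of endothelial- with ependymal-like cells gives the size of the difference between vessels and ependyma. In the non-traced library all 7 members at 5 CPM or more were past 2-fold higher in the endothelium, against 19% of 12111 genes, and none was lower, against 28.9% of genes. Fzd4, Lef1, Tcf7, Apcdd1 and Notum reached 5 CPM in the endothelium only, and Lgr5, which leaned the other way, was not counted. The genes were also chosen with earlier results of these data known. The count was thus nearly fixed in advance and is no test of whether the genes mark the vessels. The folds were 83.3 (42.3 to 193) for Tcf7, 70.4 (51.9 to 98.1) for Lef1, 41.7 (28.5 to 63.9) for Fzd4, 36.7 (18.6 to 85.0) for Apcdd1, 20.1 (13.7 to 30.8) for Notum and 16.5 (13.8 to 20.0) for Nkd1. Axin2 was lowest with 4.24 (3.74 to 4.83). The median log2 difference was 4.18, beside -0.13 for all genes. The folds rest on few ependymal UMIs and moved with the choice of cells, to 28.3 for Lef1 with each library clustered on its own, and to 90.6 for Fzd4 and 37.1 for Tcf7 with cells of at least 1000 genes and at most 5% mitochondrial UMIs. The 52 endothelial-like cells of the traced library had 256 CPM (216 to 302) of Lef1, 129 CPM (101 to 163) of Nkd1, 122 CPM (94.4 to 155) of Axin2, 69.1 CPM (48.9 to 94.8) of Fzd4, 65.5 CPM (45.8 to 90.6) of Notum, 58.2 CPM (39.8 to 82.1) of Tcf7 and 49.1 CPM (32.3 to 71.4) of Apcdd1. The intervals of Axin2, Notum, Tcf7 and Apcdd1 held the level of the non-traced endothelial-like class, and those of Lef1, Nkd1 and Fzd4 lay below it. The cells also differed from that class in other markers, with 929 against 10.8 CPM of ependymal, 967 against 549.7 CPM of pericyte and 15014 against 18736 CPM of endothelial markers, and 23 of the 52 were in a cluster led by such arterial genes as Bmx, Vegfc and Gkn3. Their part in these levels was not tested.

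Traced and non-traced ependymal-like cells are the comparison the study was built on. Only Axin2 and Nkd1 reached 5 CPM in either, and neither passed 2-fold, beside 0.78% of 11289 genes higher and 1.98% lower in traced cells. Traced over non-traced, Axin2 stood at 23.7 over 28.6 CPM (0.828-fold, 0.720 to 0.955), and Nkd1 at 8.42 over 13.8 CPM (0.609-fold, 0.494 to 0.754). Across the 8 traced clusters, Axin2 ranged from 17.5 to 31.3 CPM, and it was at 28.4 and 29.0 CPM in the 2 non-traced ones. Of the genes below 5 CPM, Lef1 was at 0.131 against 4.77 CPM, Fzd4 at 0.591 against 3.02 CPM and Notum at 0 against 3.02 CPM (1.97 to 4.43, from 26 UMIs). The non-traced Notum level was 46.1-fold above the 0.0656 CPM that a floor of 3 counts sets in the traced class. That ratio leaves out the counting error of the non-traced level. The 8 endothelial markers summed to 31.6 CPM where traced and to 306 CPM where not, and so differed in the same direction. Their part in these differences was not tested.

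The other Wnt genes give the setting. Of 92 listed, 86 were in the tables. Against ependymal-like cells 21 of 52 that reached 5 CPM (40.4%) were past 2-fold higher in the endothelium, beside 19% of all genes. Another 14 (26.9%) were lower, beside 28.9%. Against mural-like cells 13 of 55 (23.6%) were higher, beside 15.2% of all genes, and 17 (30.9%) lower, beside 17%. The median log2 difference was 0.50 and -0.12, against 4.18 and 1.499 for the 7 members at 5 CPM or more. Capillary-like cells had 1 of 42 (2.38%) past 2-fold higher than arterial-like cells, beside 1.26% of all genes, and 3 (7.14%) lower, beside 3.59%. Venous-like cells had 2 of 43 (4.65%) higher than arterial-like cells, beside 2.85%, and 4 (9.30%) lower, beside 4.32%. Venous-like against capillary-like cells gave 2 of 41 (4.88%) higher, beside 1.71% of all genes, and 1 (2.44%) lower, beside 0.849%. Traced against non-traced ependymal-like cells gave 0 of 46 higher, beside 0.78%, and 4 (8.70%) lower, beside 1.98%. Smooth muscle-like against pericyte-like cells gave 8 of 54 (14.8%) higher, beside 12.1%, and 13 (24.1%) lower, beside 15.6%.

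Among ligands, Wnt5a, which mostly signals without β-catenin, was at 12.5 CPM in arterial-like, 31.1 CPM in capillary-like and 144 CPM in venous-like cells, and 11.5-fold (10.5 to 12.7) higher in venous- than in arterial-like cells. Wnt5b had the reverse order, with 18.3, 2.13 and 2.30 CPM, and was highest in smooth muscle-like cells (121 CPM). Wls, which carries Wnt proteins to the cell surface, had 65.2 CPM in endothelial-, 217 CPM in mural- and 290 CPM in the ependymal-like cells that were not traced. In the same ependymal-like cells Wnt11 reached 20.5 CPM.

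Receptors divided by cell type. Fzd6 was at 142 CPM in endothelial-like against 44.4 and 27.8 CPM in mural- and ependymal-like cells, Fzd3 at 14.1 against 14.1 and 185 CPM and Fzd2 at 0.211 against 53.1 and 37.2 CPM. The co-receptors of the Norrin and Wnt7 complexes were all present in the endothelium. Lrp6 was at 109 CPM, Adgra2 at 87.5, Tspan12 at 86.1, Reck at 82.1 and Lrp5 at 43.3 CPM. None of these 5 differed past 2-fold between arterial-, capillary- and venous-like cells. Lgr4 was highest in ependymal-like cells (55.3 CPM), Ryk in mural-like cells (138 CPM), and Ror1 was found at 21.5 CPM in mural-like and 0.248 CPM in endothelial-like cells.

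Among secreted inhibitors, Dkk2 was at 25.6 CPM in arterial-like, 1.35 CPM in capillary-like and 0.351 CPM in venous-like cells, which is opposite to the order of Nkd1. Sfrp2 was at 226 CPM in pericyte-like cells, with 0 UMIs in smooth muscle-like cells, and Sfrp5 in ependymal-like cells was at 5.71 CPM where traced and 26.5 CPM where not (0.215-fold, 0.180 to 0.258). Znrf3, which removes Frizzled receptors, was at 13.4, 15.9 and 22.0 CPM in arterial-, capillary- and venous-like cells.

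The shared machinery varied less. Ctnnb1, the gene for β-catenin itself, was at 652, 674 and 619 CPM in arterial-, capillary- and venous-like cells, 1.09-fold apart at most, and at 261 CPM in mural-like and 243 CPM in ependymal-like cells. For Gsk3b, Csnk1a1, Apc, Gsk3a and Dvl1, the highest and the lowest of the 3 endothelial classes were 1.05-fold (Csnk1a1) to 1.18-fold (Apc) apart. The nuclear partners Tcf7l2, Tle1, Tle3, Bcl9l, Pygo2, Bcl9 and Tcf7l1 were not past 2-fold there either. Pygo1 was below 5 CPM in all 3 classes and so was not counted. Tcf7l1 was at 18.0, 16.9 and 33.3 CPM in the same order, and Bcl9 and Pygo1 were higher outside the endothelium.

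Other genes often named as targets did not all follow the 8. Ccnd1, the cyclin D1 gene, ran against them along the vessel, with 324 CPM in arterial-like, 152 CPM in capillary-like and 56.7 CPM in venous-like cells, so that it was 5.72-fold lower in venous- than in arterial-like cells. Tnfrsf19 had the order of Fzd4 and Nkd1, with 124, 151 and 165 CPM. Dact1 was found in mural-like cells (51.7 CPM) and hardly in the endothelium (0.329 CPM), and Nkd2, the paralog of Nkd1, was at 3.18, 1.16 and 9.37 CPM in arterial-, capillary- and venous-like cells.

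Genes of the barrier itself were nearly even along the vessel. Slc2a1, the glucose transporter, was at 1749, 1510 and 1472 CPM in arterial-, capillary- and venous-like cells, and the efflux pump gene Abcb1a at 1187, 1353 and 1404 CPM. Foxq1 was at 540.1, 540.4 and 515 CPM, and Foxf2, Ocln and Ppard were 1.16-fold to 1.19-fold apart at most. Sox17, an arterial transcription factor as well as a barrier gene, was the exception, with 605 CPM in arterial-like and 301 CPM in venous-like cells. Abcb1a, Sox17 and Foxq1 were past 2-fold lower in traced than in non-traced ependymal-like cells, at 0.787 against 20.6 CPM for Abcb1a, which is again the direction of the endothelial markers.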

How the data were processed

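Per the labels and the study's methods, the authors sequenced 10x Genomics Chromium 3′ libraries and made the deposited tables of raw UMI counts per gene and cell with Cell Ranger 3.0.2 and STAR 2.5.1b against mm10. They were analyzed there with R 3.6.0 and Seurat 3. Only the 3′ end of a molecule is read, and a UMI counts it once.

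The 8 genes, the other Wnt genes and the marker lists were chosen with earlier results of these data known. Here, Seurat 5.3.0 under R 4.3.3 integrated the cells of the libraries from 2000 features and 20 components, with all listed Wnt genes and the tdTomato transgene left out, and clustered at Louvain resolution 0.8. All deposited cells were used. The study's filter of 50 genes and 10% mitochondrial genes, read here as a share of UMIs, would leave 25299 and 4762 cells. The part of a cluster from each library was named where it had at least 10 cells. Endothelial-like non-traced cells, and mural-like cells, were clustered again. A sub-cluster was arterial- or venous-like when at least 50% of the class markers were 2-fold above other endothelial cells. It was capillary-like when at least 5 of 7 markers were in 50% of cells, 3 were above other cells and fewer than 3 arterial or venous markers were 2-fold up. These limits were set after seeing the data, as was the minimum of 5 CPM. Named genes were the 8, the other Wnt genes of at least 20 CPM in any of the 5 classes, and the 5 of most similar profile. A gene that the rule names is not reported here.

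Scrublet (scanpy 1.11.5) called 2170 non-traced cells (8.54%) and 0 traced cells doublets, and they were left out only as an alternative. The contrast code was tested on simulated counts. Alternatives included each library clustered on its own, a mean of per-cell CPM, thinning to 1000 UMIs, stricter filters (1000 genes, 5% mitochondrial UMIs), Wnt genes among the features, a pseudocount of 0.1, and resolutions of 0.4 and 1.6. The precision is set by class depth, 1488024 UMIs in mural-like and 185232002 in endothelial-like cells. Intervals and floors cover counting error only.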

Additional observations from a re-analysis of the deposited data

Results flagged for a closer look

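Droplets that were kept out of the comparisons still held the 8 genes above the limit that a count of 0 allows. In the non-traced library their summed level was 810 CPM in 1182 droplets with mural and endothelial markers and 838 CPM in a further 790 droplets with endothelial and mural markers, beside 984 CPM in endothelial-like and 358 CPM in mural-like cells. It was 530 CPM in 706 droplets with endothelial and ependymal markers, whose median of 13870 UMIs was above that of either class, and 377 CPM in 85 droplets with astrocyte and endothelial markers. In the traced library, a summed level of 749 CPM (678 to 825) was found in the 52 endothelial-like cells, beside 34.9 CPM in its ependymal-like cells.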

How the results depend on the processing

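Of 70 counts of members past 2-fold recomputed under alternatives, 64 stayed within 1.5 times the reported one. The 7 members above ependymal-like cells and the 2 above arterial-like capillary cells were counted at 7 and at 2 under every alternative run, 8 and 13 in number. Using only the venous sub-cluster led by Lrg1 and Ackr1, chosen after seeing the data, gave 1 in place of 2 members against arterial-like cells and 4 in place of 0 against capillary-like cells, which shows that the venous values rest on the larger sub-cluster. The share of all genes past 2-fold was not computed for that choice or for the other alternatives. For traced against non-traced ependymal-like cells, 0 members became 2 (Lef1 and Nkd1, both lower) with each library clustered on its own, and 1 (Lef1, lower) with a mean of per-cell CPM, with UMIs thinned to 1000 a cell, and with Wnt genes allowed among the features. Lef1 stood just below 5 CPM in the reported comparison, and the cause was not tested. The share of endothelial-like cells with a UMI of a member moved from 60.4% to 98.5% with no thinning. Of 560 differences of single members recomputed under alternatives, 412 stayed within the counting interval of the reported one. The other 148 moved outside it, or moved at all where a class had 0 UMIs, so the intervals do not cover the choice of processing. No called member changed direction under any of the alternatives. Clustered on its own, the non-traced library gave no mural-like class, so that the endothelial against mural count could not be recomputed there. No paired analysis was possible because each group holds 1 library.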
